A study of Rattus norvegicus with 60 samples.

Results

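The tissue described here came from the inside of 11 knee joints, each from 1 rat with haemophilia A in which a bleed had been induced in the left knee, and was taken 24 h after the procedure. These 11 arrays, named here by their rats K1 to K11, are all the arrays that the labels title as knee tissue of an injured knee, out of 60 arrays in the series. The other arrays hold the contralateral knees, knees of sham rats and popliteal lymph nodes, and none of them entered any value below. All 11 rats carried the same diagnosis, procedure and time point, so the question was how far bled knees of 1 group differed from each other, and which genes differed together. The labels call the joint injured, so what the blood did and what the injury did cannot be told apart, and sex, age, strain and the way the bleed was made are not given in the sources used here. Nothing in the labels says which arrays were prepared or hybridised together.

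Haemophilia A is the lack of coagulation factor VIII, and bleeding into joints is its main complication. Blood in a joint brings red cells, whose haem is broken down by haem oxygenase, together with neutrophils and monocytes that release cytokines, chemokines and matrix-degrading enzymes. The lining of the joint, the synovium, answers by proliferation of its fibroblasts and macrophages. Around the synovium lie fat pads, ligaments, cartilage, bone and the insertions of thigh muscles, so tissue dissected from a knee can hold cells of each. In such bulk tissue, fewer cells of a type and less RNA per cell cannot be told apart.

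The deposited values were log2 expression values of 36685 probe sets, from which 18166 genes could be named. The array medians lay between 5.64 and 5.71, and any 2 arrays correlated at 0.973 to 0.99 across all probe sets (median 0.985). K3 was least like the others, with a mean correlation of 0.978. The number of arrays limits the precision. Over the 11 knees the SD of a gene had a median of 0.18 on the log2 scale, with quartiles of 0.13 and 0.24. An SD over 0.5 was found for 707 of 18166 genes (3.89%), and this share is the background for the counts of variable members given below. Between pairs of the 11533 genes whose mean lay above the median probe set (5.65), the median correlation was 0.01, and 0.669% of pairs had an r over 0.8. Genes are not independent replicates, so counts and medians over a list are descriptions without a p-value.

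The widest spread belonged to skeletal muscle. The 10 genes with the highest SD were Csrp3, Ankrd1, Tnnc2, Myl1, Xirp2, Acta1, Mb, Actn2, Trdn and Ckm, all expressed in muscle fibres, with SDs from 2.73 down to 2.35. At the other end, among genes above the median level, Rpl4, Ppp2r5c, Eif3f, Raly, Btf3, Smarca4, Taok1, Nmt1, Psmb6 and Lsm14a had SDs of 0.03 or 0.04. Rpl4, a ribosomal protein gene, ran from 12.45 to 12.57 over the 11 knees. Csrp3, which encodes a sensor protein at the muscle Z disc, ran from 5.23 in K5 to 12.76 in K3, a range of 185-fold.

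**Figure D1:**
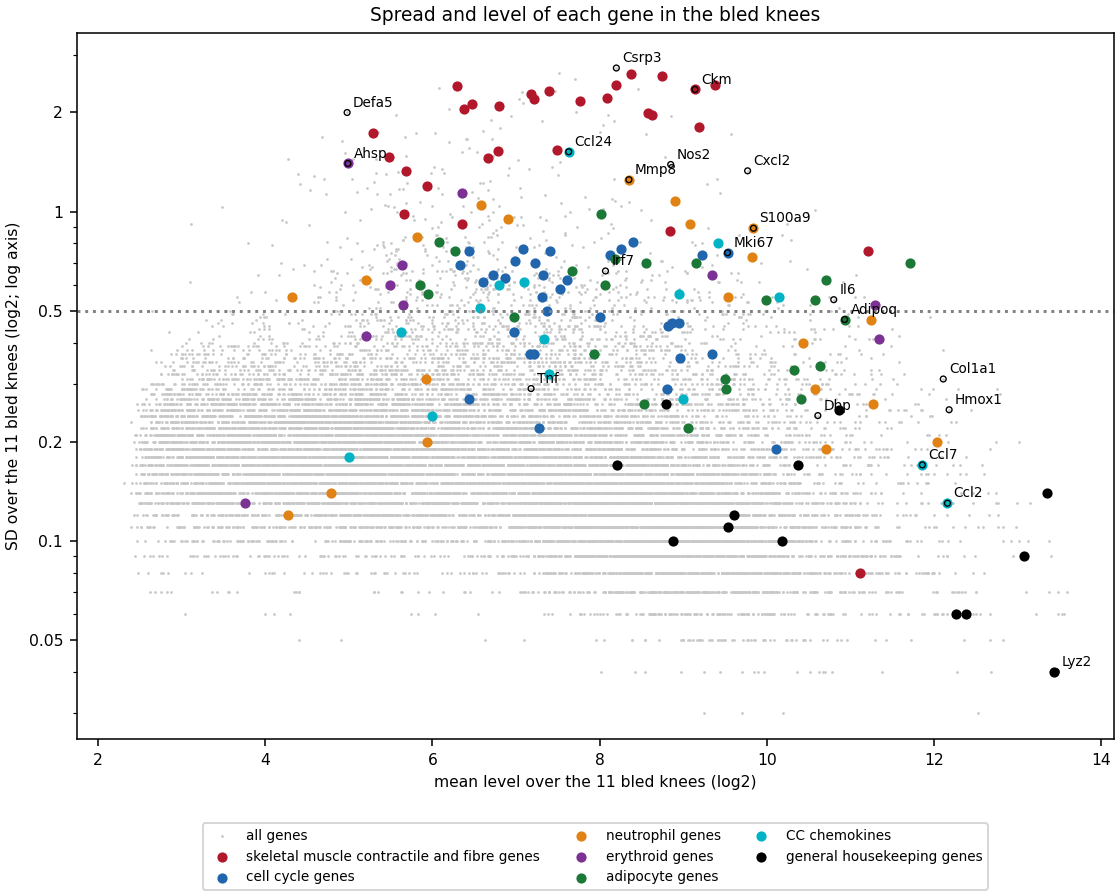
Spread of each gene over the 11 bled knees (SD of log2 values, log axis) against its mean level (log2), with each grey point 1 of 18166 genes, coloured points the members of 7 lists, open circles further named genes and the dotted line an SD of 0.5. Muscle genes lie at the top, Ccl2 and Ccl7 lie low at a mean near 12, and Ccl24 lies far above them.

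Of 29 measured genes of contractile proteins and fibre metabolism, 28 had an SD over 0.5 (background 3.89%), and the median SD was 1.99. They moved as 1 block, with a median r of 0.92 between members and an r over 0.8 in 81.3% of pairs, against 0.669% over all pairs. The mean of the list was 5.91 in K5, had a median of 6.81 and reached 11.18 in K3, and 28 of the 29 genes had their highest value in K3, which was the highest array for 10.5% of all genes. The exception was Atp2a2, the calcium pump gene that other cells use too, at 10.96 to 11.26 with an SD of 0.08.

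Ckm (probe set 17614048), the gene of muscle creatine kinase, which buffers ATP in fibres, was measured in K1 to K11 in turn at 10.39, 11.62, 13.18, 7.34, 6.48, 11.43, 7.44, 6.64, 8.37, 7.10 and 10.54. K1, K2, K3, K6 and K11 thus stood at 10.39 or above and the other 6 knees at 8.37 or below, a range of 104-fold (SD 2.35, n = 11). In the limma fit of every probe set on the Ckm level, 139 of 36684 probe sets rose with it and 10 fell (0.406% called in all). Among the 28 other muscle genes 19 rose with Ckm, beside 0.379% of all probe sets. The closest was Myl11, a myosin light chain gene of fast fibres (r = 1.00, rho = 0.99, permutation p = 1e-05 for each, the smallest that the permutations can give; adjusted p = 5.86e-10 by limma). Its slope was 0.98 ± 0.02 (SE), so both genes spanned nearly the same log2 range. Here and below, permutation p-values of genes picked by their high r with a reference gene are not adjusted for that pick. Myl1, Actn3, Tnnt3 and Tnnc2, also genes of fast fibres, followed with r of 0.99. Without K3 the count of called probe sets was 88 in place of 149, and the same number of muscle genes (19) was called. A single named gene above the median level fell, Enox2, an oxidase gene of the cell surface (r = -0.90, adjusted p = 0.0484).

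Slow-fibre genes were high in 3 of the 5 knees with high Ckm. Myh7, the slow myosin heavy chain gene, was at 9.50 in K3, 7.04 in K6 and 6.67 in K2, and at 4.03 to 4.78 in the other 8 knees. Myl3, Tnnt1 and Tnni1, further genes of slow fibres, were high in the same 3 knees, at 6.38 to 9.09, and did not exceed 5.56 elsewhere. K1 and K11, whose Ckm levels were 10.39 and 10.54, thus had slow-fibre levels (Myh7 at 4.09 and 4.57) within the range of the knees with little Ckm. These slow-fibre genes correlated with Ckm at 0.77 to 0.80, with adjusted p-values of 0.0928 to 0.147, and were not called. K1 and K11 also differed from each other. Ankrd1, a gene of the stretch and injury response of muscle, was at 6.39 in K1 and 10.40 in K11, and Csrp3 at 7.33 and 9.89. These genes were singled out after their values had been seen.

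Of 13 satellite cell and regeneration genes 12 had a positive r with Ckm (median r 0.53). By limma 1 of the 13 was called as rising with Ckm, beside 0.379% of all probe sets. This was Myf6, a myogenic regulator expressed in mature fibres (r = 0.92, limma adjusted p = 0.00251). Myf6 was at 10.30 in K3, 9.15 in K2, 9.07 in K11 and 8.76 in K6, and at 5.13 to 6.15 in the other 7 knees. Pax7, which marks satellite cells, the stem cells of muscle, ran from 5.62 to 6.24 (SD 0.21, percentile 56.6 for its level). Myog, a differentiation factor, was at 6.93, 6.76 and 6.0 in K2, K3 and K6 and at 5.23 or less in the rest.

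The genes of oxidative phosphorylation, the mitochondrial chain that makes ATP, moved by small amounts. The median SD of 17 members was 0.15, below that of all genes, yet the median r was 0.79. Among genes of similar mean level only 1 of the 17 had an SD in the lowest 25%. All 17 had their highest value in K3, as had 10.5% of all genes. Without K3 the median r was 0.30. The muscle isoform gene Cox8b was at 8.34 in K3, 6.32 in K2 and 5.58 in K6, and at 4.26 to 4.90 in the other knees, whereas Cox4i1, a subunit of nearly all cells, ran from 10.24 to 10.57. With Ckm as a covariate the median r of the muscle genes was 0.56 and that of the oxidative phosphorylation genes 0.73.

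In a search of promoters the stretch before the Ckm start and that before Myl11 are shown because both hold the letters CAGCTG, an E-box of the kind bound by MyoD, the master regulator of muscle. They are RefSeq sequences of the rat build GRCr8, the 160 bases before the annotated start, with the matches in capitals.
Ckm, chr1:88189301-88189460, plus strand: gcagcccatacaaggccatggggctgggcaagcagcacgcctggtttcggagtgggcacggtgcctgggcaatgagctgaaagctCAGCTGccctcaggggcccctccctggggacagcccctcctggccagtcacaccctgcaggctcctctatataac
Myl11, chr1:191260129-191260288, plus strand: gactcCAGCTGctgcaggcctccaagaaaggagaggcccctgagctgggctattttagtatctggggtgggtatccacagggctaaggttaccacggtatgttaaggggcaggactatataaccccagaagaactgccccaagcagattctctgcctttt
These letters, which read the same on both strands, were found in the 250 bases before the start of 11 of 31 muscle genes with a promoter in the table, and in 12% of 33469 promoters. They were not found there for Myl1, Actn3 and Tnnc2, which also followed Ckm. A match is a description of letters, not of a bound site.

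**Figure D2:**
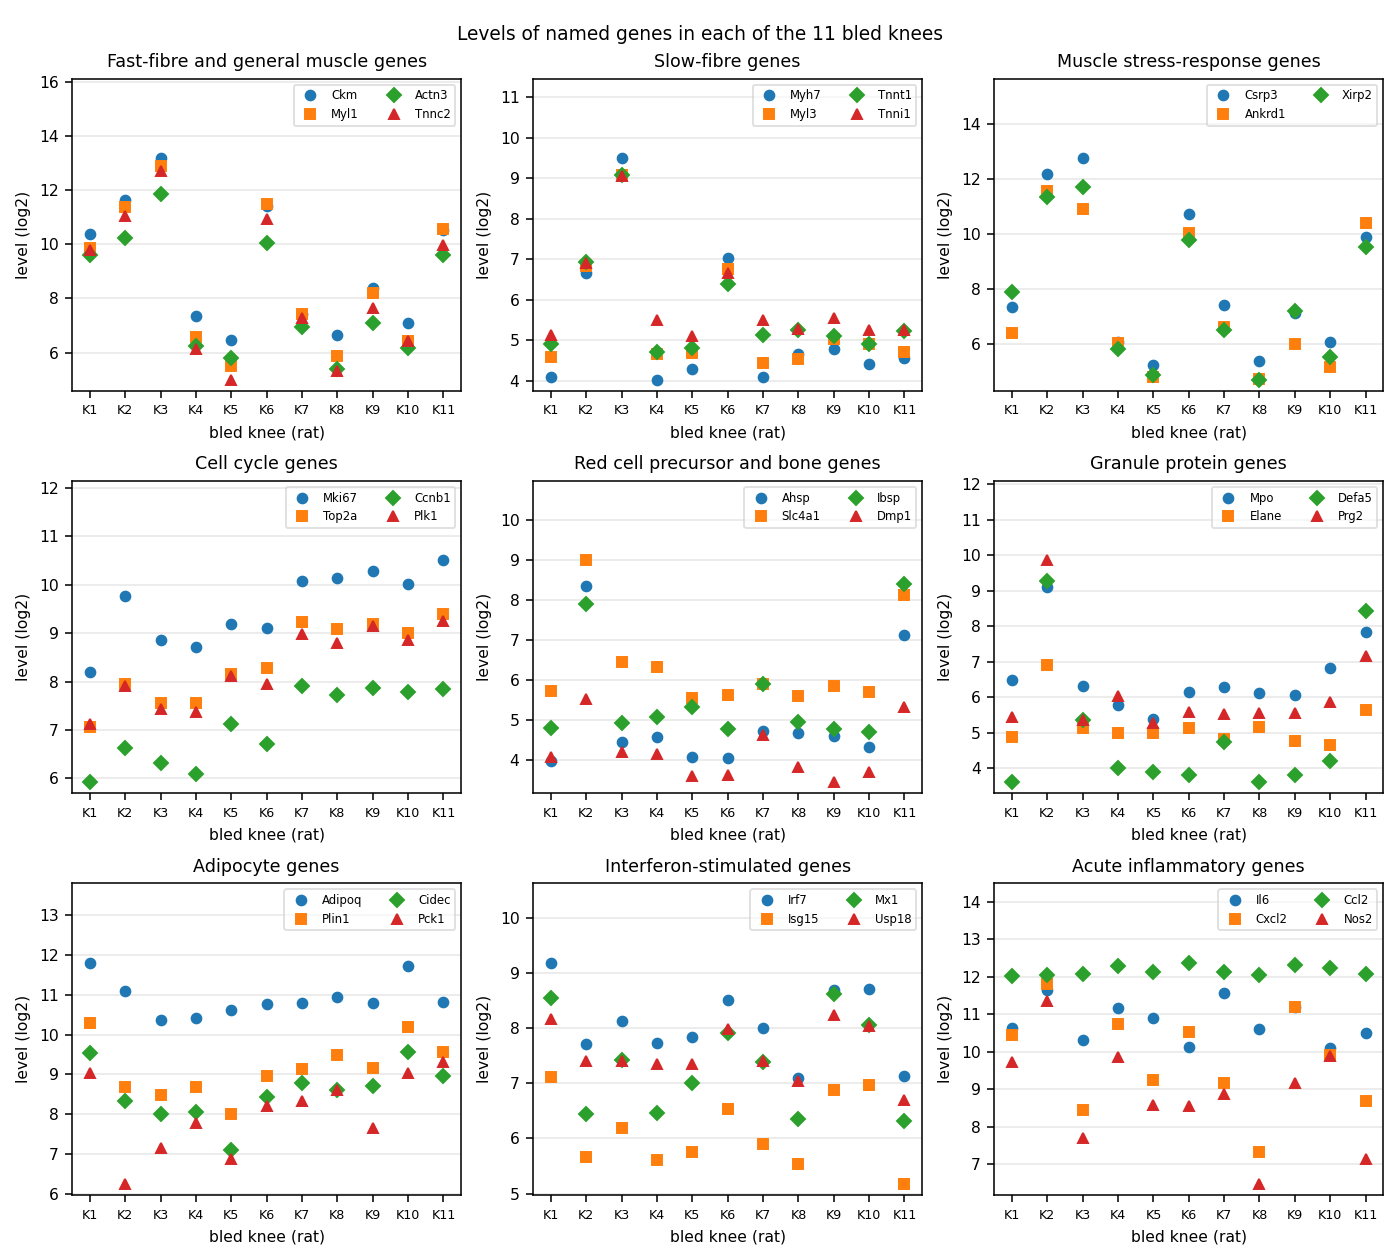
Levels (log2) of named genes in each of the 11 bled knees, with 1 point per gene and rat and 1 panel per group of genes. Fast-fibre genes are high in K1, K2, K3, K6 and K11, slow-fibre genes in K2, K3 and K6, the cell cycle genes shown in K7 to K11, and red cell precursor and bone genes in K2 and K11, while Ccl2 stays between 12.03 and 12.38.

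Proliferation was the second block. Of 32 cell cycle genes 19 had an SD over 0.5, the median SD was 0.60, and the median r between members was 0.90 with 79.6% of pairs over 0.8. Mki67 (probe set 17637913), a marker of cycling cells, was at 8.19, 9.76, 8.85, 8.72, 9.19, 9.10, 10.08, 10.13, 10.29, 10.01 and 10.50 in K1 to K11 (SD 0.75, n = 11). Top2a, which encodes the topoisomerase that untangles replicated DNA, ran from 7.06 in K1 to 9.40 in K11, and Ccnb1, the mitotic cyclin B1, from 5.93 in K1 to 7.90 in K7. In 25 of the 32 cell cycle genes the 5 highest knees were K7 to K11, as against 1.76% of all genes. These 5 rats were picked from the values, so no test was made between them and the others, and what the rat numbers stand for is not given. Pcna and Cdt1, replication genes, varied least in the list (SD 0.19 and 0.22).

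Against Mki67 limma called 159 probe sets that rose with it and 6 that fell (0.45% of 36684 in all), of which 109 rising ones were named. Of 31 other cell cycle genes 19 rose with it, beside 0.433% of all probe sets, among them Ube2c, Tpx2, Cenpf, Top2a and Plk1, genes of chromosome segregation and mitosis (r of 0.95 or 0.96). Members with adjusted p-values over 0.05 included E2f1 (r = 0.31) and the replication licensing genes Mcm2 (0.61), Mcm3 (0.74), Mcm5 (0.79) and Mcm6 (0.76). The leading genes outside the list were the histone genes Hist1h2bg, Hist2h2bb and H2ac4 and the cell cycle regulators E2f8 and Mybl2. Mybl2, a transcription factor of dividing cells, ran from 6.72 to 8.64 (r = 0.97, rho = 0.99, permutation p = 1e-05 for each; limma adjusted p = 0.000858). Histone genes are near-identical copies, so their probe sets may not tell them apart. The count of 165 called probe sets was 62 without K1, 82 without K11, 99 without K4, 106 without K3, 108 without K9 and 282 without K2, and the called members of the list numbered 12 to 25 when 1 knee was left out, the fewest without K1.

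The promoters of Mki67 and Hist1h2bg are shown for the letters TTTGAA, the cell cycle homology region (CHR) of genes expressed in late division.
Mki67, chr1:199952594-199952753, minus strand: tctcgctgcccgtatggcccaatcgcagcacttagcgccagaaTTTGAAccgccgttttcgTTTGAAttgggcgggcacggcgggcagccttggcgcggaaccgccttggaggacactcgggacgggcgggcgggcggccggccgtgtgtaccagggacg
Hist1h2bg, chr17:41999109-41999268, plus strand: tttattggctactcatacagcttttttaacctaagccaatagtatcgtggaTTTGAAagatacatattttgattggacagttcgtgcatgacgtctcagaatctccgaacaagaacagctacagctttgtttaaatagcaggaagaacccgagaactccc
On either strand TTTGAA was present in 9 of 26 cell cycle promoters, beside 16.2% of all promoters. It was not found before Mybl2 and H2ac4, which also followed Mki67. The letters CCAAT of the CCAAT box were present in 19 of the 26, beside 34.0% of all.

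Inflammatory genes did not form such a block. The median r was 0.14 among 18 proinflammatory cytokine genes, 0.06 among 13 CXC chemokine genes, -0.01 among 15 CC chemokine genes and 0.30 among 15 anti-inflammatory and feedback genes. Within each list some genes differed widely between knees and others less. Of the cytokine genes 7 had an SD over 0.5, of the CXC chemokine genes 6, of the CC chemokine genes 7 and of the feedback genes 6.

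Il6 (probe set 17788345), the gene of the cytokine interleukin 6, was at 10.65, 11.65, 10.31, 11.17, 10.91, 10.13, 11.57, 10.60, 11.20, 10.09 and 10.51 in K1 to K11 (SD 0.54, n = 11), highest in K2 and K7 and lowest in K10 and K6. Limma called 1 of 36684 probe sets against it (0.00273%), the one of Lif, whose product signals through the same receptor subunit as interleukin 6. Lif was at 10.16 in K2, 9.97 in K7 and 8.01 in K10 (r = 0.96, rho = 0.94, permutation p = 1e-05 and 7e-05; limma adjusted p = 0.00994; slope 1.16 ± 0.11 SE). No probe set was called without K2, without K7 or without K10, while Lif correlated with Il6 at 0.94 to 0.98 whichever knee was left out. Il11, another cytokine of that family, had the highest SD in the list (0.90) and was at 8.44 in K2, 8.40 in K7 and 5.80 to 7.37 elsewhere (r = 0.81 with Il6, adjusted p = 0.541). Il1b ran from 8.02 in K3 to 9.99 in K2 (SD 0.65), and Tnf from 6.56 in K3 to 7.78 in K2 (SD 0.29). Il23a and Tnfsf14 had the lowest SDs among members above the median level (0.14 and 0.16).

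The Il6 promoter is shown for the NF-kB pattern, GGG and CC with any 5 bases between them, which is bound by the factor that drives many inflammatory genes.
Il6, chr4:5894576-5894735, minus strand: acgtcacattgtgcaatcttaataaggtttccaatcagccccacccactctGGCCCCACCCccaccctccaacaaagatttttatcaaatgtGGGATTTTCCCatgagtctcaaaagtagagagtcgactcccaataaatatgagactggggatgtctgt
The capitals cover 3 matches on either strand, of which 2 overlap. This loose pattern was found in 8 of 14 cytokine promoters and in 42.3% of all promoters.

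Among chemokines, the monocyte attractants Ccl2 and Ccl7 were nearly the same in every knee, at 12.03 to 12.38 (SD 0.13) and 11.64 to 12.18 (SD 0.17). For its level this was ordinary, since the SD of Ccl2 lay at percentile 48.8 and that of Ccl7 at 67.1 among genes of similar mean level (all genes were split into 10 bins by mean). The neutrophil attractant Cxcl2 ran from 7.32 in K8 to 11.80 in K2, a range of 22.3-fold (SD 1.33), and Cxcl6, of the same family, from 6.98 in K3 to 9.36 in K2 (SD 0.89). Cxcl6 had the highest r with Il6 of the 28 chemokine genes (0.90, limma adjusted p = 0.229), and was not called. Ccl20, which attracts cells bearing CCR6, ran from 8.17 in K6 to 10.64 in K2 (SD 0.80).

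Ccl24, an eosinophil attractant made by alternatively activated macrophages, followed another order. It was at 10.48, 6.37, 8.46, 7.96, 7.12, 9.49, 7.03, 6.28, 8.75, 5.94 and 6.06 in K1 to K11, a range of 23.3-fold with K1 and K6 highest and K10 and K11 lowest (SD 1.52). The interferon-induced Cxcl10 was at 8.91 in K9, 7.87 in K1 and 6.29 to 7.36 in the rest.

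In the feedback list, Nos2, the gene of inducible nitric oxide synthase, ran from 6.47 in K8 to 11.36 in K2, 29.7-fold (SD 1.39). Arg1, whose product competes with it for arginine, ran from 10.54 to 11.98 (SD 0.55). Il1r2, a decoy receptor for interleukin 1, was at 10.50 in K2 and 10.29 in K4 and at 7.35 in both K3 and K8 (SD 1.08). Tgfb1 and Socs3 had the lowest SDs of the list (0.13 and 0.19), at percentiles 52.4 and 74.4 for their level. K2 had the highest value of 8 of the 15 feedback genes, 8 of the 18 cytokine genes and 5 of the 13 CXC chemokine genes, as it had of 11.7% of all genes.

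Neutrophil genes varied more coherently. Of 21 members 11 had an SD over 0.5, the median r was 0.44, and the list mean ran from 7.48 in K3 to 9.14 in K2. K2 was the highest knee for 13 of the 21, as it was for 11.7% of all genes. S100a9 (probe set 17749130), a subunit of the calcium-binding protein calprotectin that fills neutrophils, was at 9.49, 11.60, 8.15, 10.72, 10.17, 9.39, 9.66, 9.75, 10.06, 9.07 and 10.19 in K1 to K11, a range of 10.9-fold (SD 0.89, n = 11). Limma called 9 probe sets that rose with it and none that fell (0.0245%), while 3183 had an unadjusted p under 0.05. The called neutrophil genes were S100a8, the other calprotectin subunit, and Mmp8, the neutrophil collagenase. Mmp8 ran from 6.54 in K3 to 11.09 in K2 (r = 0.95, rho = 0.90, permutation p = 3e-05 and 0.00032; limma adjusted p = 0.0104). Outside the list Mov10, an RNA helicase gene, Fetub, a protease inhibitor gene, and Nlrp12, a myeloid receptor gene, were among those called (r of 0.92 or 0.93). These calls hung on single knees: no probe set was called without K2, without K4 or without K10, 1 without K1 or without K7, and 3 or 4 without K3, K5, K6 or K9. Of the 20 other neutrophil genes 12 rose with S100a9 at an unadjusted p under 0.05, beside 5.25% of all probe sets. Their median r with S100a9 was 0.7. With ranks in place of log2 values the count was 9 (median r 0.49), and without K2 it was 9 (median r 0.53). Itgam, Cybb and Padi4 varied least among members above the median level (SD 0.19 for Itgam and 0.20 for the others).

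The monocyte and recruited macrophage genes had a median SD of 0.30, against 0.18 over all genes. Lyz2, the lysozyme gene of macrophages, ran from 13.38 to 13.50 (SD 0.04) and Cd68, a lysosomal protein gene of macrophages, from 11.02 to 11.57 (SD 0.15). For their level these SDs lay at percentiles 0.8 and 62.0. The highest value of any probe set was 13.95, and whether the top of the scale limited Lyz2 was not tested. Of 20 members 4 had an SD over 0.5, led by Clec4e, a receptor for dead cells and mycobacteria (7.65 to 9.61, SD 0.62), and Trem2, a lipid receptor of macrophages (8.83 in K2 to 10.60 in K10, SD 0.56). Among genes of resident macrophages, Folr2 and Mertk varied least (SD 0.19 and 0.20). F13a1, the factor XIII subunit of macrophages and platelets, was at 12.07 in K2 and at 9.35 to 10.96 elsewhere. Cd163, the receptor that takes up haemoglobin bound to haptoglobin, ran from 9.88 in K1 to 11.83 in K11 (SD 0.64).

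The T cell list had a median SD of 0.30, against 0.18 over all genes, and a median r of 0.33, with Cd2 from 8.06 in K8 to 10.21 in K2 and Foxp3 and Cd5 at an SD of 0.21 and 0.19, both at percentile 54.5 among genes of similar level. None of the 10 B cell genes had an SD over 0.5, which is near the share of all genes (3.89%) for so short a list. Pairs of a T cell gene and a muscle gene had a median r of -0.44, and pairs of a B cell gene and a muscle gene of -0.37.

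Genes of the interferon response formed another, looser block, with a median r of 0.62 among 27 genes, 9 of them with an SD over 0.5. Irf7 (probe set 17638314), the factor that amplifies the type I interferon response, was at 9.19, 7.71, 8.14, 7.74, 7.84, 8.52, 8.0, 7.09, 8.70, 8.72 and 7.14 in K1 to K11, highest in K1, K10 and K9 and lowest in K8 and K11 (SD 0.66, n = 11). Limma called 6 probe sets that rose with it and 1 that fell (0.0191%), and the 4 named ones were Isg15, Usp18, Mx1 and Herc6, all members of the list (rising background 0.0164%). Isg15, a ubiquitin-like modifier, ran from 5.17 in K11 to 7.11 in K1 (r = 0.96, rho = 0.98, permutation p = 1e-05 for each; limma adjusted p = 0.00182). Mx1, an antiviral GTPase gene, ran from 6.31 in K11 to 8.62 in K9 (adjusted p = 0.00524). Usp18 removes Isg15 from proteins and Herc6 attaches it. Of the 26 other members 20 rose with Irf7 at an unadjusted p under 0.05, beside 2.76% of all probe sets. The count of 7 called probe sets was 4 without K11 and none without both K1 and K10.

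Part of the response went its own way. Ifit1, an interferon-induced RNA-binding protein gene, had the highest SD in the list (1.03) and an r of -0.08 with Irf7, and Rsad2 and Ifit3 had r of 0.22 and 0.36. Ifit1 was at 7.83 in K9 and 6.41 in K2, but at 4.54 and 4.60 in K1 and K10, where Irf7 was high. K3 and K7 were at 4.54 and 4.56 as well, and the mean of Ifit1 (5.54) lay below the median probe set (5.65). Whether low signal limited these values was not tested. Mx2 ran from 5.60 in K8 to 8.86 in K9 (SD 0.94). Stat2 and Ifih1, a signal transducer and an RNA sensor, varied least (SD 0.18 and 0.24).

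The Irf7 promoter is shown for the interferon-stimulated response element, searched on both strands as GAAA and GAAA with any 2 bases between them.
Irf7, chr1:205800024-205800183, minus strand: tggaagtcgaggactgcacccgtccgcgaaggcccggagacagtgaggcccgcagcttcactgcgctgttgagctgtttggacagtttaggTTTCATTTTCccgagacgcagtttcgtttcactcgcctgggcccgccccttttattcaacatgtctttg
The capitals mark 1 match on the opposite strand. The pattern was present before 15 of 21 interferon-stimulated genes with a promoter in the table and before 3.41% of all, and was not found in those 250 bases of Mx1 and Herc6. The tables held 20 of the 30 reference and leading genes sought.

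**Figure D3:**
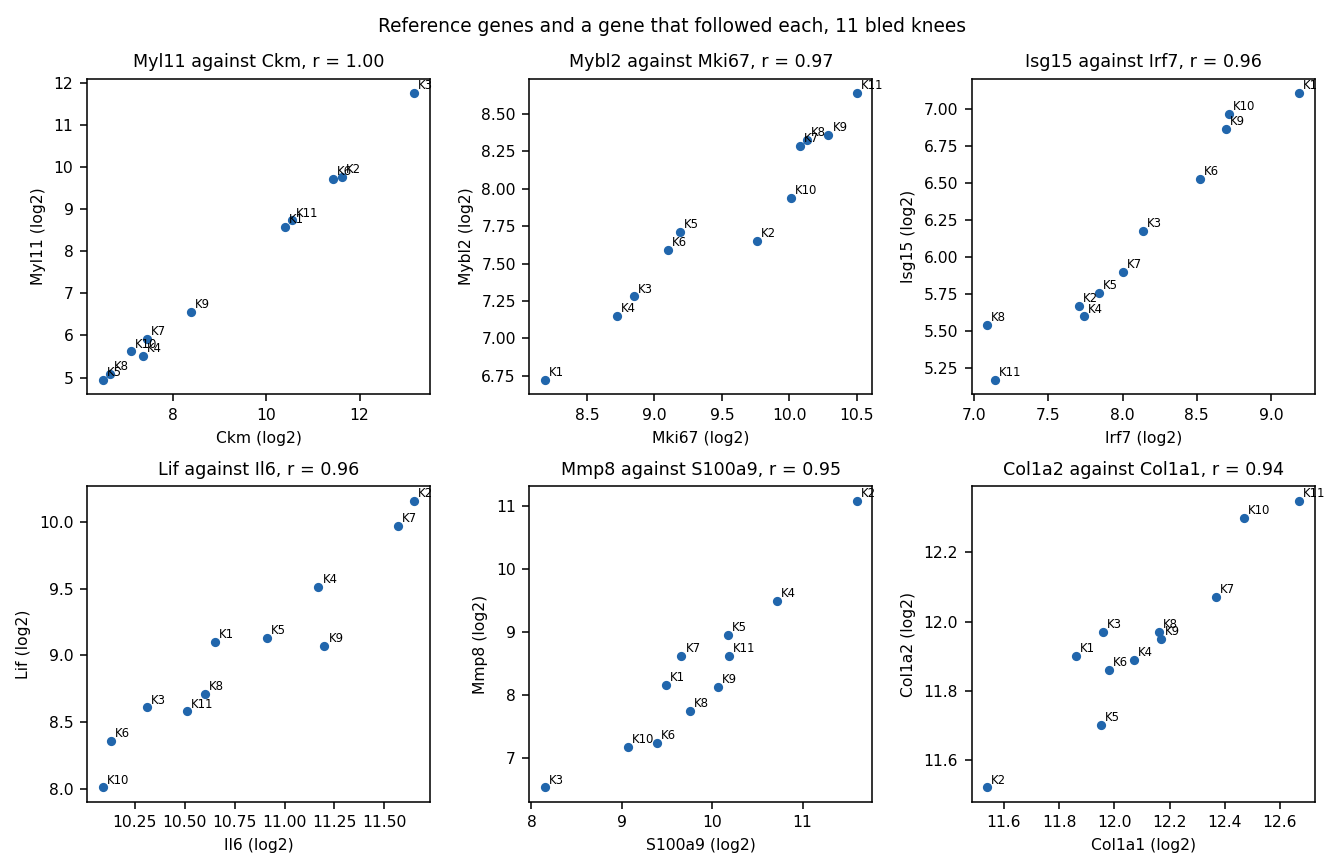
Level of a gene against a reference gene (both log2) in the 11 bled knees, 1 point per rat, with r over the 11 knees. Myl11, Mybl2, Isg15, Lif and Mmp8 were called by limma against their reference gene and Col1a2 was not; K2 is highest for S100a9 and Mmp8, and lowest for Col1a1 and Col1a2.

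Haem and iron genes differed in spread from gene to gene. Hmox1 (probe set 17728071), which encodes the inducible haem oxygenase, was at 12.15, 12.30, 11.60, 12.35, 12.26, 12.41, 12.09, 12.17, 12.42, 11.88 and 12.39 in K1 to K11, with K3 lowest (SD 0.25, n = 11, and 0.17 without K3), which is percentile 84.6 among genes of similar level. The ferritin genes Fth1 and Ftl1, whose products store the freed iron, each had an SD of 0.10, and both were lowest in K3 (12.81 and 13.14). Of 19 haem and iron genes 3 had an SD over 0.5, Lcn2, Cd163 and Slc40a1, beside 3.89% of all genes, and the median SD was 0.20 against 0.18 over all genes. No probe set was called against Hmox1 by limma, and 2947 had an unadjusted p under 0.05. Slc40a1, the iron exporter ferroportin, ran from 7.07 in K3 to 9.03 in K2.

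Red cell genes varied mainly through 2 knees. Hba-a1 (probe set 17655129), an alpha globin gene, was at 8.55, 10.68, 9.04, 8.76, 9.54, 9.80, 8.61, 9.09, 9.12, 9.71 and 9.84 in K1 to K11 (SD 0.64, n = 11), highest in K2 and then K11 and K6. Globin genes are near-identical copies, so their probe sets may share signal. Ahsp and Slc4a1 separated the knees more sharply than Hba-a1. Ahsp, the chaperone of alpha globin, was at 8.33 in K2 and 7.11 in K11 and between 3.97 and 4.71 in the other 9. Slc4a1, the anion exchanger of the red cell membrane, was at 8.98 and 8.12, and at 5.54 to 6.45 in the others. Of 10 erythroid genes 8 had K2 and K11 as their highest knees, as had 2.35% of all genes, and the median r of 0.83 became 0.27 without these knees. Limma called no probe set against Hba-a1, and 1598 of 36683 had an unadjusted p under 0.05.

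The same knees held genes of bone and of early granulocytes. Ibsp, the gene of bone sialoprotein, was at 8.40 in K11 and 7.90 in K2 and at 4.69 to 5.89 in the others, and Dmp1, a gene of osteocytes, at 5.33 and 5.52 beside 3.45 to 4.62. Of 11 bone and osteoclast genes 5 had K2 and K11 as their highest knees, as had 2.35% of all genes. Over the other 9 knees the median r of the 11 genes was 0.08. Bglap and Sost, further defining bone genes, did not part the knees so. Bglap was at 5.67 and 5.84 in K2 and K11 and 4.82 to 5.75 in the others, and Sost at 6.44 and 7.13 beside 5.87 to 6.57. Mpo, the myeloperoxidase gene, which neutrophils transcribe while they form in the marrow, was at 9.12 in K2, 7.85 in K11 and 5.38 to 6.82 in the others. Elane, the neutrophil elastase gene of the same stage, was at 6.90, 5.65 and 4.67 to 5.18. The defensin gene Defa5 was at 9.29 and 8.44 beside 3.62 to 5.35, and Prg2, the eosinophil major basic protein gene, at 9.86 and 7.17 beside 5.29 to 6.04. These genes were gathered after their values had been seen, and whether K2 and K11 held marrow or bone was not tested.

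Fat genes were shared unequally among the knees. Adipoq (probe set 17670095), the gene of the fat cell hormone adiponectin, was at 11.81, 11.10, 10.37, 10.41, 10.63, 10.77, 10.80, 10.95, 10.79, 11.73 and 10.83 in K1 to K11 (SD 0.47, n = 11). K1 and K10 stood apart by a gap of 0.44 of the whole range, so correlations with Adipoq were taken over the other 9 knees only. Of 24 adipocyte genes 14 had an SD over 0.5, the median r was 0.65, and 13 had K1 and K10 as their highest knees, as had 4.76% of all genes. Without K1 and K10 the median r was 0.43. Plin1, which coats the lipid droplet, was at 10.30 and 10.19 in K1 and K10 and at 8.0 to 9.56 elsewhere, lowest in K5. Pck1, the enzyme of glycerol synthesis in fat, had the highest SD (0.98) and its lowest value in K2 (6.24), and Lep, the leptin gene, was instead high in K2 and K1 (7.52 and 7.45, against 5.06 to 6.38). Cebpa and Lipe, an adipocyte transcription factor gene and the hormone-sensitive lipase gene, varied least (SD 0.22 and 0.26). Over the 9 knees limma called nothing against Adipoq, where 2006 probe sets had an unadjusted p under 0.05. Of 12 fatty acid synthesis genes 2 had an SD over 0.5, Thrsp (0.80) and Acacb (0.59), while Acly, which makes cytosolic acetyl-CoA, had an SD of 0.08.

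Matrix genes ranged from low to high spread. Fn1, the fibronectin gene, ran from 13.25 to 13.54 (SD 0.09), Dcn, the proteoglycan decorin, from 12.80 to 13.20 (SD 0.11), and the main joint lubricant Prg4 had an SD of 0.13 with its highest value in K2 (13.41). These SDs lay at percentiles 22.5, 41.1 and 49.8 for their level, the latter 2 ordinary among genes as bright. Of 22 collagen chain genes 1 had an SD over 0.5, near the share of all genes (3.89%). It was Col14a1, at 10.04 and 9.93 in K1 and K10 and 8.36 to 9.32 in the others. Omd, a small proteoglycan gene of mineralised tissue, was at 6.78 in K1, 5.61 in K10 and 3.67 to 4.53 in the others, and Fmod, the collagen-binding fibromodulin, ran from 7.96 in K9 to 9.90 in K3. K10 and K11 stood apart in the mean of the collagen genes, whose median r over the other 9 knees was 0.11. Of the 22 other matrix and fibroblast genes 6 had K1 and K10 as their highest knees, as had 4.76% of all genes.

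Col1a1 (probe set 17650326), the main collagen gene of fibrous tissue, was at 11.86, 11.54, 11.96, 12.07, 11.95, 11.98, 12.37, 12.16, 12.17, 12.47 and 12.67 in K1 to K11 (SD 0.31, n = 11), lowest in K2 and highest in K11, K10 and K7. No probe set was called against it, the smallest adjusted p being 0.0617, while 2844 had an unadjusted p under 0.05. Col1a2, the other chain of the same fibril, had an r of 0.94 (rho = 0.84, permutation p = 3e-05 and 0.00174; limma adjusted p = 0.321). Since Col1a2 was picked by its high r, these permutation p-values are not adjusted for the search over all genes. Cell cycle genes went with Col1a1 as a group without a single call. Their median r with Col1a1 was 0.74, all 32 correlations were positive, and 30 had an unadjusted p under 0.05, beside 4.45% of all probe sets. That count was 28 to 31 when any 1 knee was left out and 27 with Ckm as a covariate. The 32 genes moved together (median r of 0.90 between members), so their correlations with Col1a1 are not separate observations. Mki67 itself had an r of 0.59 with Col1a1 (permutation p = 0.0569, adjusted p = 0.512).

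Among cartilage and lining genes a few had a wide spread. The cartilage genes Clec3a and Chad ran from 4.50 in K10 to 8.52 in K4 and from 6.13 in K8 to 9.39 in K4 (SD 1.37 and 1.00), both highest in K4 and high also in K6 and K11. The defining cartilage genes Acan and Col2a1 stayed low, at 4.53 to 6.22 and 5.65 to 6.67, and Matn1 at 5.28 to 5.75. In the synovial lining list Clic5, a lining fibroblast gene, ran from 7.95 in K8 to 11.39 in K3 (SD 1.14), and Htra4, a protease gene, was at 12.04 and 11.93 in K10 and K1 and 8.17 in K8 (SD 1.01). The lining list had its lowest mean in K8.

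Among 25 proteases and inhibitors 3 had an SD over 0.5. Mmp13, the collagenase of cartilage and bone, ran from 7.67 in K6 to 10.90 in K2 and 11.56 in K11 (SD 1.21). Mmp8 was the most variable member. Timp1 and Timp2, inhibitors of these enzymes, had SDs of 0.14 and 0.15, at percentiles 57.6 and 61.1 for their level, and Mmp3, the stromelysin gene, ran from 11.10 to 12.49 (SD 0.48).

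K2 stood out in metabolism. Of 17 genes of glycolysis and the hypoxia response 13 were highest in K2, beside 11.7% of all genes. Egln3, an oxygen sensor induced by hypoxia, was at 10.59 in K2 and at 6.93 to 8.23 in the others, an SD of 1.02 that was 0.50 without K2. The glucose transporter gene Slc2a1 was at 12.14 in K2 and at most 11.03 elsewhere. Without K2 the median r of the list was 0.22 in place of 0.52. Immediate-early and heat-shock genes were also highest in K2 for 13 of 23 members, led by the small heat-shock protein gene Hspb1 at 11.97 in K2 and 11.57 in K3 (9.28 to 10.32 elsewhere).

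Clock genes, which oscillate over the day, had a median r of -0.00 among 15 members. They had 1 SD over 0.5 (background 3.89%), that of Npas2 (7.33 in K9 to 9.10 in K2). Dbp (probe set 17616470), an output gene of the clock, was at 10.61, 10.16, 10.54, 10.60, 10.71, 10.69, 10.59, 10.48, 10.90, 11.05 and 10.37 in K1 to K11 (SD 0.24, n = 11). The core activator Clock was nearly fixed (SD 0.08). Nothing was called against Dbp by limma, where 2589 probe sets had an unadjusted p under 0.05. Of 27 interferon-stimulated genes 17 rose with Dbp at an unadjusted p under 0.05, beside 3.68% of all probe sets. These genes also moved together (median r of 0.62 between members), so they are not separate observations. Times of day are not given in the sources used here.

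**Figure D4:**
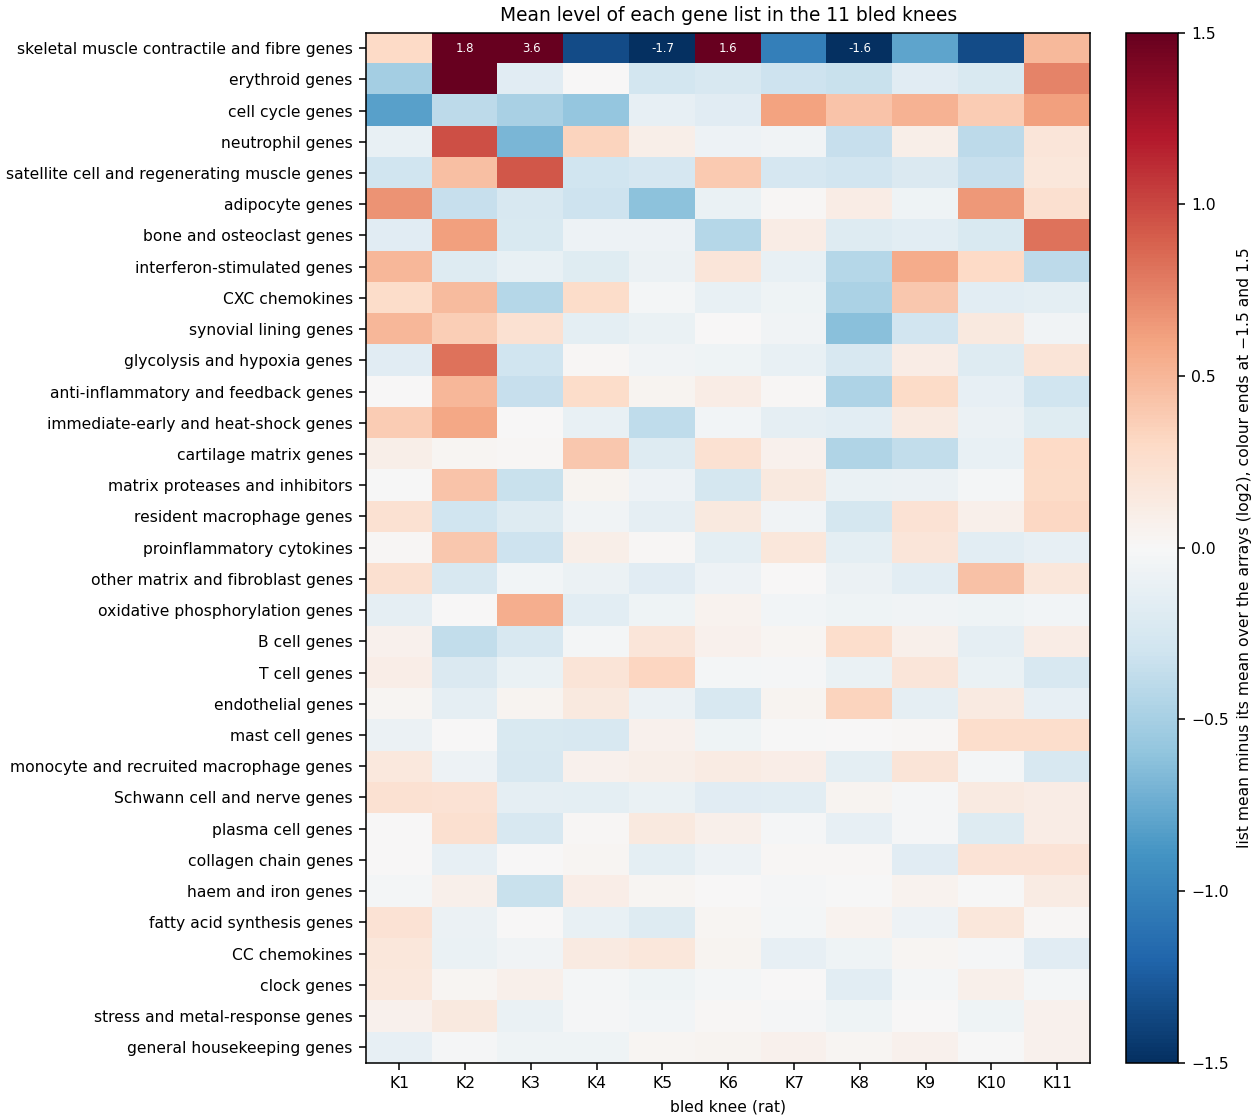
Mean log2 level of each gene list in each bled knee minus its mean over the 11 knees, with red above and blue below that mean, lists ordered by their spread, and values beyond 1.5 printed. K3, K2 and K6 lead the muscle genes, K2 and K11 the erythroid and bone genes, K7 to K11 the cell cycle genes, K2 the glycolysis and neutrophil genes, and K1 and K10 the adipocyte genes.

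Housekeeping genes had a median SD of 0.11, with Eef1a1 at 0.04 and Ywhaz at 0.06, and the widest were Tfrc (0.26) and Pgk1 (0.25). Among genes of similar mean level 3 of the 13 had an SD in the lowest 25%, so the list was ordinary for its level. Of 17 stress and metal-response genes none had an SD over 0.5, which is near the share of all genes (3.89%). Mt2A, the metallothionein gene, ran from 13.49 to 13.69 (SD 0.07), near the highest value of the arrays.

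The 10 reference genes, 1 for each theme, were also set against each other in 45 pairs. No pair passed an adjusted p of 0.05 by Pearson or Spearman permutation tests (2-sided, Benjamini-Hochberg over the 45), and 4 and 5 pairs had an unadjusted p under 0.05. The smallest adjusted p was 0.284 for r and 0.328 for rho. S100a9 and Hmox1 had an r of 0.73 (permutation p = 0.0126, adjusted p = 0.284) and a rho of 0.57 (permutation p = 0.0706), and r was 0.64 without K2 and K3. Il6 and S100a9 had an r of 0.71 (permutation p = 0.0112, adjusted p = 0.284) and a rho of 0.68 (permutation p = 0.0251), and r was 0.73 without K2 and K7. Mki67 and Adipoq, over 9 knees, had an r of 0.72 (permutation p = 0.0302, adjusted p = 0.435) and a rho of 0.72 (permutation p = 0.0364). This r was 0.33 without K3 and K4, and 0.62 to 0.83 when any 1 knee was left out. Leaving out K3 and K4, the lowest in Adipoq, also narrows its range, so whether the relation rested on them was not tested. Irf7 and Dbp had an r of 0.62 (permutation p = 0.0387, adjusted p = 0.435) and a rho of 0.75 (permutation p = 0.0120), and r was 0.79 without K1 and K8. Col1a1 and Mki67 had an r of 0.59 (permutation p = 0.0569, adjusted p = 0.512) and a rho of 0.70 (permutation p = 0.0202), and r was 0.79 without K2 and K11. S100a9 and Irf7 went in opposite directions, with a rho of -0.65 (permutation p = 0.0361, adjusted p = 0.328). Their r was -0.39 (permutation p = 0.24, adjusted p = 0.681), and -0.53 without K2 and K3.

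**Figure D5:**
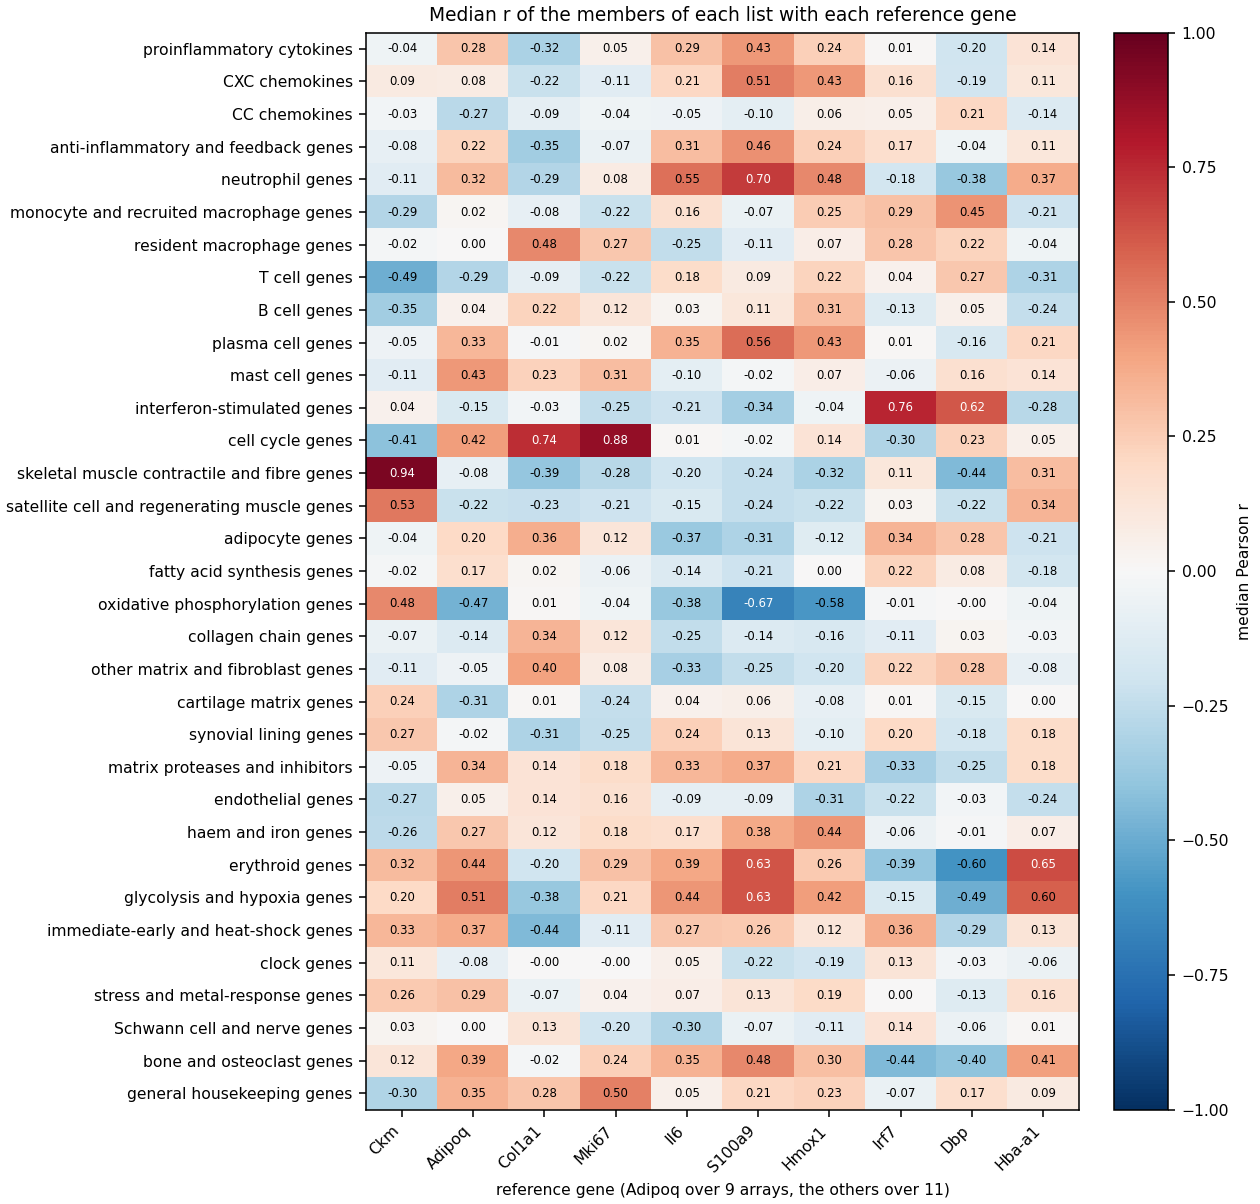
Median Pearson r of the members of each gene list (rows) with each reference gene (columns), over 9 knees for Adipoq and 11 for the others, with the value printed in each cell. Muscle genes with Ckm (0.94), cell cycle genes with Mki67 (0.88) and Col1a1 (0.74), interferon-stimulated genes with Irf7 (0.76) and neutrophil genes with S100a9 (0.70) have the highest medians.

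In a principal component analysis of all probe sets, component 1 took 23.3% of the variance among the 11 knees, and its named genes of largest loading were Csrp3, Tnnc2, Myl1, Xirp2 and Actn2, all muscle genes. K3 scored 60.4 on it, K2 31.7, K6 14.2, K1 11.1 and K11 3.9, and the other 6 knees scored from -30.7 to -14.7. Component 2 held 12.8% and was led by Defa5, Mmp8, Stfa2, Igkv2-112l2 and Prg2, with K2 at 43.6, K3 at -23.4 and K10 at -30.1. Component 3 held 10.9%, led by Defa5, Defa11, Ibsp and Ahsp with positive loadings and Ccl24 with a negative one. K11 scored 38.7 on it and K8 19.8, while K4 scored -23.3 and K1 -22.0.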

How the data were processed

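Affymetrix arrays of total RNA from knee tissue were used, 1 per rat. Per the submitters' processing notes the authors used RMA and Affymetrix Expression Console 1.4.46, and they deposited log2 values. RMA corrects background, normalizes between arrays and summarises probes, and can compress differences at low and high signal. The rats are separate animals per the labels. The 11 columns of the bled knees were used as deposited, and no 2 were identical.

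Of 36685 probe sets 18511 had 1 symbol in the platform annotation, 575 had several and 17599 were unlisted. Each gene was represented by its brightest probe set on average, which gave 18166 genes. SD and Pearson r were computed in Python 3.11.15. In limma 3.58.1 (R 4.3.3) each probe set was fitted on the level of each of 10 reference genes, with p-values adjusted by Benjamini-Hochberg over all probe sets and called below 0.05. Pairs of reference genes were tested with 100000 permutations, 2-sided. The same permutations were run for the genes of highest r with a reference gene. As these genes were picked by their r, such permutation p-values are unadjusted for the search. Where at least 2 arrays stood apart by over 0.4 of the range, r was taken over the larger cluster only. On simulated data the fit for Ckm recovered 61 of 100 probe sets with a true r of 0.95 and 10 of 100 at 0.8. The fit for Mki67 recovered 54 and 5 of 100. Among 36684 probe sets 6 others were called for Ckm and 2 for Mki67.

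The members, reference genes and 34 gene lists were chosen with earlier results of these data known. The genes named are the reference genes, the 10 highest and 10 lowest SDs, the 2 highest and 2 lowest SDs of each list, the 5 highest and 3 lowest r among called genes, and the genes of largest loading on the components; other list members named were chosen after their values were seen. Promoters are RefSeq sequences of GRCr8. Alternatives were centring, quantile normalization, ranks, no dim probe sets, an intensity trend with a robust prior, Ckm as a covariate, the mean of a gene's probe sets and leaving out each array; leaving out K2 with K11 or K1 with K10 was added after seeing the data.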

Additional observations from a re-analysis of the deposited data

How the results depend on the processing

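The number of probe sets called against each reference gene was recomputed under each alternative. With ranks in place of log2 values the counts against Ckm (149), Mki67 (165), Il6 (1), S100a9 (9) and Irf7 (7) were all 0. Ranks give nearly every probe set the same variance, so limma could not reach small p-values even for a perfect rank order. These counts thus cannot show whether the relations hold in ranks. In ranks 25 of 28 muscle genes rose with Ckm (median r 0.97) at an unadjusted limma p under 0.05. So did 30 of 31 cell cycle genes with Mki67 (median r 0.88), 32 of 32 with Col1a1 (0.8) and 19 of 26 interferon-stimulated genes with Irf7 (0.76). The neutrophil genes held less well. In ranks 9 of 20 rose with S100a9 (median r 0.49), beside 12 (0.7) with log2 values. Of 17 cytokine genes 5 rose with Il6 in ranks (median r 0.3). With each array centred the count against S100a9 was 3. Against Col1a1 it was 1 with quantile normalization, with dim probe sets left out and with an intensity trend and robust prior. Without K1 and K10 it was 35 against Mki67 and 0 against Il6, S100a9 and Irf7, and without K2 and K11 it was 0 against Il6 and S100a9 and 2 against Irf7. With 1 knee left out the counts ranged from 88 to 163 for Ckm, 62 to 282 for Mki67, 0 to 1 for Il6, 0 to 11 for S100a9, 4 to 9 for Irf7, 0 to 1 for Col1a1 (1 without K7) and 0 to 2 for Hmox1 (2 without K10), and were 0 for Adipoq, Dbp and Hba-a1. In all, 38 of these alternative counts moved by over 1.5 times and 151 did not. Many of the 151 were counts of 0 that stayed at 0, as in every alternative for Adipoq, Dbp and Hba-a1. Such counts say nothing on how stable the calls were. The number of reference gene pairs past the threshold was 0 in each alternative. Of all 45 pairs 18 changed the sign of r when 1 knee was left out. Only the 12 pairs of smallest p were carried through every alternative, and among these the sign turned for Adipoq with Hmox1 without K3 (-0.20, up to 0.66 without K4), for S100a9 with Dbp without K2 and K11 (0.01), and for S100a9 with Hba-a1 without K2 (-0.03, up to 0.59 without K4) and without K2 and K11 (-0.18). Where no alternative's construction shows it, the cause was not tested. No paired analysis was possible because only 1 group of rats enters and each rat gives 1 array. The number of arrays limits the fits, as the recovery on simulated data at a true r of 0.8 shows, and for genes near the top of the signal range a small spread may be limited by the array, which was not tested.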
